A study of Mus musculus with 5 samples.

Results

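The 5 mRNAs described here encode cytosolic translation elongation factors, Eef1a1, Eef1a2, Eef1d, Eef1g and Eef2. They were taken by symbol from a table of ribosome footprint counts, and all 5 were found among its 10329 genes. Footprints are the short mRNA pieces that a ribosome shields from nucleases, so their number on a coding sequence (CDS) reads how many ribosomes sat on that mRNA. The libraries came from acute hippocampal-cortical brain slices of 400 µm, cut from wild-type male C57BL/6N mice at postnatal days 28 to 35 and left to recover for 3 to 4 h. Slices then received 20 µM homoharringtonine (HHT) for 0, 5, 10, 30 or 60 min, with 0.05% DMSO named as the vehicle. HHT stops ribosomes that have just initiated, while ribosomes already elongating can run on to the stop codon. Each library was 1 pool of 10 slices from 2 to 3 mice, so each of the 5 times has 1 library and no replicate. All lysates held cycloheximide, and no sample used here is of the Fmr1 knockout that the series' design text also names. No library of slices held in vehicle for 5 to 60 min was used here, so time on HHT and further time after slicing cannot be told apart.

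Elongation adds amino acids in a cycle. eEF1A, encoded by Eef1a1 or Eef1a2, carries each aminoacyl-tRNA to the ribosome as a complex with GTP, and leaves as a complex with GDP. The eEF1B complex reloads eEF1A with GTP: eEF1B delta, encoded by Eef1d, is an exchange subunit, and eEF1B gamma, encoded by Eef1g, is a scaffold subunit. eEF2 then moves the ribosome along the mRNA by a codon. In the brain, Eef1a1 is made widely, in glia among other cells, and Eef1a2 takes over in mature neurons, as it does in muscle. mRNAs of elongation factors belong to the group with a 5′ terminal oligopyrimidine (TOP) start, through which mTOR signalling controls their translation together with that of ribosomal proteins.

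In GRCm38.p6, Eef1a1 (transcript NM_010106) lies on chromosome 9 from 78478453 to 78481724, and Eef1a2 (NM_007906) on chromosome 2 from 181141758 to 181157015. Eef1d (NM_029663) lies on chromosome 15 from 75894796 to 75909784, Eef1g (NM_026007) on chromosome 19 from 8967041 to 8978180, and Eef2 (NM_007907) on chromosome 10 from 81176631 to 81182509. The coding sequences are 1389 nt for Eef1a1, 1392 nt for Eef1a2, 1983 nt for Eef1d, 1314 nt for Eef1g and 2577 nt for Eef2. The 1983 nt of Eef1d are those of 1 transcript, while RefSeq lists 8 curated transcripts of this gene, so how its footprints divide over its isoforms is not known from these values. The counts are on the CDS without its ends and hold nothing from the untranslated regions.

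The annotated starts of the members were searched for a TOP start, since that is the feature these mRNAs are known for. RefSeq windows (GRCm38.p6) were present for 3 of the 5 genes, and are shown 5′ to 3′ on the gene's strand, with the bases from the annotated start onward in capitals. They are chr9:78481710-78481739 (minus strand), chr2:181157001-181157030 (minus strand) and chr10:81176616-81176645 (plus strand).
Eef1a1: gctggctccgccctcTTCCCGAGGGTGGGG
Eef1a2: tctctcctggtctgcGTTCTCGCTCACTGG
Eef2: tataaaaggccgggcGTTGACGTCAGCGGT
A run of a C followed by at least 4 bases that are each C or T, was searched on the transcribed strand. Beginning at the annotated start or up to 3 nt after it, the run was in 0 of these 3 windows, in 8.08% of all 32851 windows and in 4 of 25 windows of ribosomal protein genes, a family whose mRNAs are textbook TOP mRNAs. With starts up to 3 nt before the annotated one allowed as well, a search added after these windows were seen, Eef1a1 held the run, from its last lower-case base on. This wider search found the run in 1 of 3 member windows, in 11.5% of all windows and in 5 of 25 ribosomal protein windows. Found or not, this says only whether these letters are at that place in the window. The Eef1a1 window also holds the letters TATATAA after its annotated start. Whether transcription begins at the annotated starts was not tested.

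The libraries held 1346175 to 7155147 counts in all, most at 0 min and fewest at 60 min, with median counts per gene of 208 at 0 min and 38 at 60 min. Intervals below are 95% intervals on the counts of single libraries and cover counting error only; amplified reads with no stated molecular identifiers can make them too narrow. Marker genes were read beside the tissue label. Of 12 neuronal markers 10 were in the count table, led by Map2 with 33774 counts and Camk2a with 24789 counts at 0 min. That table holds only genes with at least 11 counts at 0 min, so no measured marker could be at 0 there. In the later libraries no measured neuronal, astrocyte, oligodendrocyte, endothelial or mural marker was at 0 counts either, so this does not tell tissues apart. The neuronal marker Snap25 was not in the count table, and in the second deposited table, of TPM, it was at 0 in each library. Of 11 measured microglial markers, 1 was at 0 counts at 30 min.

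The first question is how many footprints each elongation factor mRNA carried. Levels are given as footprint signal, the deposited count per kilobase of CDS less 600 nt, divided by a deposited factor for each library. At 0 min Eef1a2 had the highest signal of the 5, and the eEF1A mRNAs together carried far more footprints per length than the mRNA of any other elongation factor. The signal of Eef1a2 was 20062 (95% interval 19751 to 20376), which ranked 48 of 10329 genes, and that of Eef1a1 was 13044 (12794 to 13299), which ranked 73. Eef2 followed with 4020 (3932 to 4110), rank 346. Eef1g had 1074 (1000 to 1153), rank 1471, and Eef1d had 624 (583 to 667), rank 2404. No 2 of these intervals overlapped. Eef1d had more counts than Eef1g, 863 against 767, so the order of these 2 signals rests on the CDS of 1983 nt used for Eef1d. How its footprints divide over its isoforms is not known. The summed eEF1A signal was 8.23 times that of Eef2 and 30.8 times that of Eef1g. In the second deposited table, of rounded TPM (a level per length as a share of the library), these ratios were 8.44 and 30.6. The level of Eef1d depended on the table. At 0 min its TPM divided by its signal was 1.32 times the median of that quotient over 3252 genes (5th to 95th percentile 0.813 to 2.30 times), against 0.946 to 0.977 times for the other 4 members.

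Read from the 0 min to the 60 min library, Eef1a1 had 10292, 2849, 2802, 3035 and 2642 counts. Eef1a2 had 15889, 3776, 2934, 3141 and 2787 counts in the same order. Before any scaling, the 0 min library was thus the highest for both, and the 4 libraries with HHT lay well below it. Eef2, the translocase, had 7948, 3550, 2275, 2239 and 2089 counts, with 5 min between 0 min and the later times. Eef1d had 863, 291, 184, 200 and 200 counts, and Eef1g had 767, 240, 237, 231 and 206 counts, so the eEF1B subunits have the widest intervals. In total the 5 mRNAs took 35759 counts at 0 min, 0.50% of the library (0.495 to 0.505, exact binomial). With HHT this share was 0.384%, 0.417%, 0.588% and 0.589% (0.576 to 0.602 for the last), in time order. Their share of all footprints was therefore lowest at 5 min, and at 30 and 60 min was above that at 0 min.

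**Figure D1:**
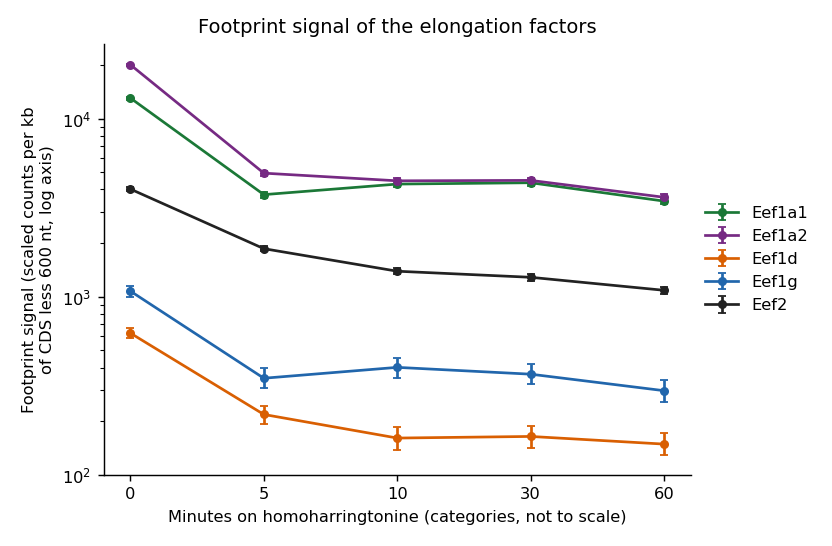
Footprint signal (scaled counts per kilobase of CDS less 600 nt, log axis) of the 5 elongation factor mRNAs at 0, 5, 10, 30 and 60 min of HHT, 1 library per time, bars showing 95% counting intervals. Eef1a2 and Eef1a1 are apart at 0 min (20062 and 13044) and have overlapping intervals at 10, 30 and 60 min.

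The second question is how many of these footprints were left after HHT. With the deposited library factors, whose origin no source used here gives, all 5 mRNAs fell, and most of the fall was in place at 5 min. Relative to other mRNAs the direction turned for 4 of 5: at 60 min the ratio to 0 min was 1.31 to 1.51 under TMM scaling and 1.30 to 1.36 in the TPM table for Eef1a1, Eef1d, Eef1g and Eef2. For Eef1a2 it was 0.989 and 0.886. Ratios of the signal to that at 0 min are given below for the libraries of 5, 10, 30 and 60 min in this order. For Eef1a2 the ratio was 0.246 (0.238 to 0.255), 0.223 (0.214 to 0.232), 0.224 (0.216 to 0.233) and 0.180 (0.173 to 0.188). For Eef1a1 it was 0.287 (0.275 to 0.299), 0.329 (0.315 to 0.343), 0.335 (0.321 to 0.348) and 0.264 (0.253 to 0.275). The 2 eEF1A mRNAs, with nearly equal CDS lengths, thus kept different shares of their footprints at every time, and the intervals of the pair did not overlap at any of the 4. Eef1g, the eEF1B scaffold, had ratios of 0.324 (0.279 to 0.375), 0.373 (0.321 to 0.432), 0.342 (0.294 to 0.396) and 0.276 (0.235 to 0.322), with intervals that overlap those of Eef1a1 and lie above those of Eef1a2 at all 4 times. Eef1d, the exchange subunit, had 0.349 (0.305 to 0.399), 0.257 (0.218 to 0.302), 0.263 (0.224 to 0.307) and 0.238 (0.203 to 0.278). Eef2 had 0.463 (0.445 to 0.481), 0.346 (0.330 to 0.362), 0.32 (0.305 to 0.335) and 0.270 (0.257 to 0.283). Eef2 has the longest CDS of the 5 and the highest ratio at 5 min.

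At 60 min the order was Eef1g, Eef2, Eef1a1, Eef1d and Eef1a2. Neighbours in that order from Eef1g to Eef1d had overlapping intervals, and Eef1a2 lay below all of them. Every member was under 0.5 at all 4 times, which in time order holds for 78.1%, 84.3%, 95.4% and 97.3% of all genes, so this is near the background. The median ratio over 10329 genes was 0.333, 0.268, 0.223 and 0.181 in time order, and that over the 5 members was 0.324, 0.329, 0.32 and 0.264. In the same order 2, 3, 5 and 4 of the 5 members were above the all-gene median, where 50% of genes are above it by construction. Eef1g at 60 min stood above 82.6% of genes, Eef2 above 81.3%, Eef1a1 above 79.8%, Eef1d above 73.2% and Eef1a2 above 49.7%.

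The time at which the fall was reached differed among the members. By 5 min Eef1a1 had lost 96.9% of what it had lost at 60 min, Eef1g 93.3%, Eef1a2 91.9% and Eef1d 85.4%, and Eef2 had lost 73.6%. The same share for the all-gene median ratio was 81.4%. From 5 to 10 min the signal of Eef1a1 went up to 1.15 times (1.09 to 1.21) its 5 min value, and that of Eef1g was 1.15 times (0.958 to 1.38), an interval that includes 1. Over the same step Eef1a2 went to 0.906 times (0.863 to 0.951), Eef2 to 0.747 times (0.708 to 0.788) and Eef1d to 0.737 times (0.609 to 0.889), while the median gene went to 0.849 times. From 10 to 30 min Eef1a1 (1.02, 0.966 to 1.07), Eef1a2 (1.01, 0.956 to 1.06), Eef1d (1.02, 0.832 to 1.25) and Eef1g (0.916, 0.760 to 1.10) had intervals that include 1, and Eef2 went to 0.924 times (0.872 to 0.980). The median gene went to 0.847 times over that step. From 30 to 60 min all 5 had values below 1, from 0.788 for Eef1a1 to 0.906 for Eef1d, with an interval for Eef1d that includes 1 (0.741 to 1.11). The median gene went to 0.815 times. These steps take the deposited library factors as given.

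The change over all 5 libraries was tested as a slope on log2(minutes + 1), with edgeR's quasi-likelihood test on all 9444 genes with a mean of at least 10 counts and Benjamini-Hochberg adjustment over all of them. With libraries scaled by the deposited factors, all 5 members were called lower at adjusted p under 0.05, as were 94.2% of all genes tested, so the call itself does not set the members apart. Eef1a2 had the steepest slope of the 5, falling by 0.40 log2 units per unit (SE 0.0775, adjusted p = 0.000484, edgeR). The slope of Eef1d was -0.35 (SE 0.0738, adjusted p = 0.000782, edgeR) and that of Eef2 was -0.31 (SE 0.0691, adjusted p = 0.000948, edgeR). Eef1a1 had -0.30 (SE 0.0771, adjusted p = 0.00264, edgeR) and Eef1g -0.29 (SE 0.0746, adjusted p = 0.00242, edgeR). All 5 were lower than at 0 min in 4 of 4 libraries with HHT. These calls rest on the 0 min library: without it, 0 of 5 members were called, with adjusted p from 0.0585 for Eef2 to 0.833 for Eef1a1, while 4154 genes in all were still called lower. With time as plain minutes 0 of 5 were called as well (adjusted p from 0.118 to 0.237), when 24 genes in all were called lower.

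With TMM scaling, which sets the typical gene level so that a slope reads a gene relative to other mRNAs, 0 of 5 members were called in either direction. At this scaling 0.0106% of genes were called lower and 0% higher, with 513 lower and 646 higher at an unadjusted p under 0.05, and DESeq2 called 37 lower and 36 higher. All 5 slopes were above 0. Those of Eef1g (0.12, SE 0.0625, adjusted p = 0.506), Eef1a1 (0.11, SE 0.0733, adjusted p = 0.598) and Eef2 (0.087, SE 0.0724, adjusted p = 0.694) were larger than those of Eef1d (0.059, SE 0.0591, adjusted p = 0.756) and Eef1a2 (0.010, SE 0.071, adjusted p = 0.974), all by edgeR. No member had an unadjusted p under 0.05 (lowest 0.0900, for Eef1g), and DESeq2's Wald test also called 0 of 5. The slope of Eef1a2 was below 0 under 6 of the alternative settings, limma on log2(TPM + 1) among them (-0.02). A tilt of these mRNAs relative to other mRNAs was therefore not detectable over 5 libraries.

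**Figure D2:**
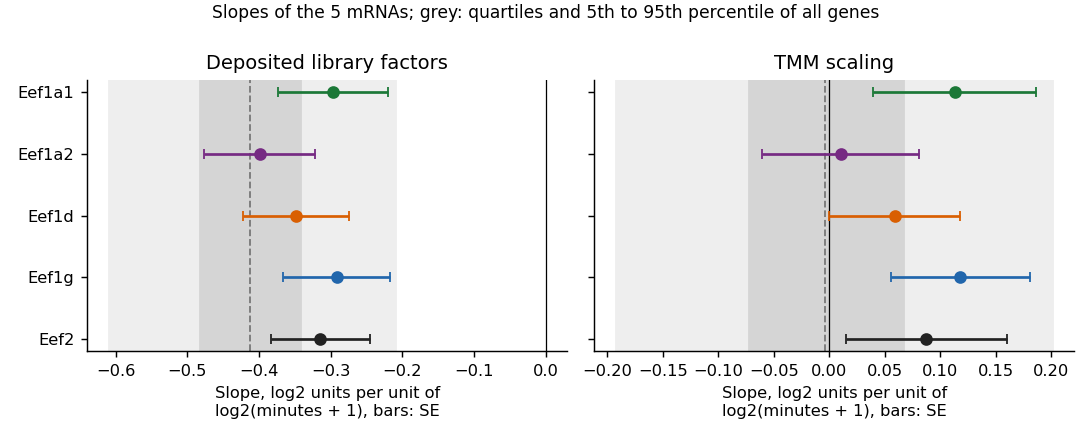
Slopes of the 5 mRNAs over the 5 libraries in log2 units per unit of log2(minutes + 1), with SE bars, under the deposited library factors (left) and TMM scaling (right). Grey bands show the quartiles and the 5th to 95th percentile of 9444 genes, the dashed line their median. All 5 slopes are below 0 on the left, and on the right 0 of 5 passed the test.

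Footprints of long coding sequences take longer to run off, so each member was set beside all genes whose CDS, less 600 nt, was within 10% of its own. Eef1a2 stayed near the middle of its 830 genes of like length at each time. In time order it stood above 44.0%, 45.3%, 49.6% and 50.2% of them, and their median ratio at the last time was 0.179. Eef1a1 left the middle of nearly the same genes. It stood above 59.0%, 77.3%, 80.9% and 81.2% of 831 genes, and was above their upper quartile at the last 3 times (0.319, 0.298 and 0.242). Eef1g stood above 73.9%, 84.9%, 82.6% and 83.3% of 777 genes, and was likewise above their upper quartile from 10 min on. Eef2 was close to the median of its 715 genes at 5 min (0.463 against 0.449) and stood above 85.0% of them at 30 min and 86.7% at 60 min. Eef1d stood above 49.3% of 826 genes at 5 min and 75.4% at 60 min, if its footprints belong to the CDS of 1983 nt. Among genes of like length with at least 500 counts at 0 min, a comparison added after these values were seen, the shares at 60 min were 92.0% for Eef1a1, 54.0% for Eef1a2, 82.6% for Eef1d, 94.7% for Eef1g and 95.0% for Eef2. These positions describe single libraries and carry no test.

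**Figure D3:**
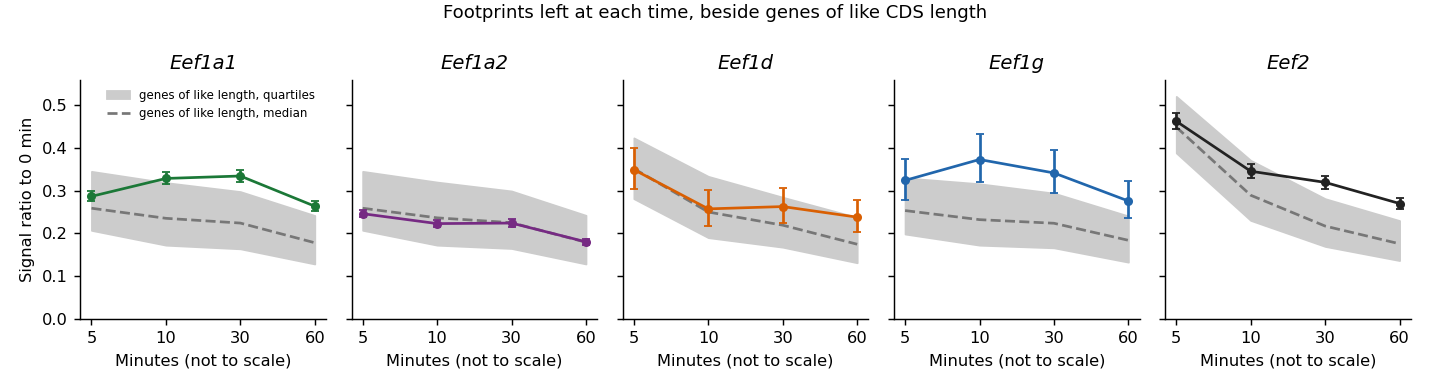
Signal ratio to 0 min of each mRNA at 5, 10, 30 and 60 min with 95% counting intervals, over the quartiles (grey band) and median (dashed) of genes whose CDS less 600 nt is within 10% of its own. Eef1a2 follows the dashed line, with 0.180 at 60 min, while Eef1a1, Eef1g and Eef2 lie above the band at 30 and 60 min.

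The third question is whether the members kept their proportions to each other. A ratio of 2 genes within a library does not depend on how libraries are scaled. The balance of the 2 eEF1A mRNAs changed. Eef1a1 made up 39.3% of eEF1A footprints before HHT (38.7 to 39.9, exact binomial). From 5 to 60 min it made up 43.0% (41.8 to 44.2), 48.8% (47.5 to 50.2), 49.1% (47.9 to 50.4) and 48.7% (47.3 to 50.0). The share was lowest at 0 min and stood between at 5 min, and the 3 later libraries had overlapping intervals. In the TPM table the share was 39.4%, 43.1%, 49.0%, 49.2% and 48.8%. The ratio of Eef1a1 to Eef1a2 was thus 1.16 times (1.10 to 1.23) its 0 min value at 5 min. At the 3 later times it was 1.47 (1.39 to 1.56), 1.49 (1.41 to 1.58) and 1.46 times (1.38 to 1.55) that value. All 4 values share the single 0 min library and have no replicate check. Near-identical stretches of the 2 coding sequences, and of processed copies of Eef1a1 in the genome, can share reads, and no source used here says how the deposited counts treat them.

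**Figure D4:**
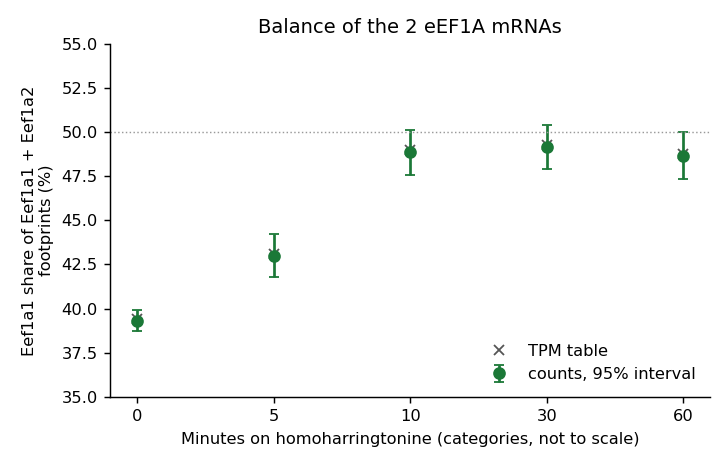
Share of Eef1a1 in the footprints of Eef1a1 and Eef1a2 together, in percent, for each of the 5 libraries; points with bars are counts with 95% binomial intervals, crosses the TPM table. The axis runs from 35% to 55%, and the share is 39.3% at 0 min and between 48.7% and 49.1% from 10 min on.

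Because Eef1a1 and Eef1a2 differ in the cells that use them, marker genes were set beside this balance. The summed signal of 10 neuronal markers was 0.517, 0.439, 0.300 and 0.242 times its 0 min value at 5, 10, 30 and 60 min. Without Map2, the largest of them, it was 0.302, 0.280, 0.271 and 0.236 times. That of 9 astrocyte markers was 0.203, 0.159, 0.127 and 0.0996 times, that of 9 oligodendrocyte and precursor markers 0.210, 0.165, 0.125 and 0.0736 times, and that of 11 microglial markers 0.125, 0.0610, 0.0459 and 0.0485 times. The 10 endothelial and mural markers stood at 0.569, 0.540, 0.201 and 0.158 times. Mbp, myelin basic protein, is on the oligodendrocyte list but not in the count table. Carried from the TPM table to the signal scale it alone stood at 0.953, 1.26, 0.808 and 0.685 times, and the oligodendrocyte sum with it at 0.580, 0.709, 0.465 and 0.378 times. At 60 min the summed astrocyte and microglial markers were thus further below their 0 min values than the neuronal ones, while the oligodendrocyte sum was below or above them according to Mbp. The part of these cells in the balance was not tested. In bulk slices, fewer cells of a type and fewer footprints per cell cannot be told apart.

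For the pairs among Eef1a1, Eef1g and Eef2, the change from 0 min had an interval that includes 0 from 10 min on. The counts of Eef1a1 over those of Eef2 were 1.29 before HHT and then 0.803, 1.23, 1.36 and 1.26 in time order, and the change from 0 min was 0.620 times (log2 -0.69, -0.77 to -0.61) at 5 min and 0.977 times (log2 -0.03, -0.13 to 0.06) at 60 min. The change of Eef1a1 against Eef1g had an interval that includes 0 at all 4 times, with a log2 value of -0.07 (-0.30 to 0.17) at 60 min. Eef1g against Eef2 was at 0.701 times at 5 min and at 1.02 times (log2 0.03, -0.20 to 0.26) at 60 min. Eef1a2 fell against each of the other 4 at 60 min, to 0.667 times against Eef2 (log2 -0.58, -0.67 to -0.49), 0.653 times against Eef1g (log2 -0.61, -0.84 to -0.39) and 0.757 times against Eef1d (log2 -0.40, -0.63 to -0.17). Of the 10 pairs, 8, 6, 7 and 4 in time order had an interval of the change that leaves out 0, and the last 4 all involve Eef1a2. These intervals were not adjusted over pairs. The summed eEF1A signal, 8.23 times that of Eef2 before HHT, was 4.67, 6.31, 6.90 and 6.5 times that of Eef2 in the later libraries.

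For each member the 3 genes with the most similar pattern were taken by the Euclidean distance of the log2 signal ratios at the 4 times with HHT, among 4204 other genes with at least 50 counts in every library. For Eef1a1 they were Lsamp (distance 0.114), Epdr1 and Rgs3, and for Eef1a2 they were G3bp1 (0.101), St13 and Psmd5. For Eef1d they were Sybu (0.0743), Chrm4 and Klc2, for Eef1g Mapk3 (0.0811), Lpgat1 and Cx3cl1, and for Eef2 Atmin (0.065), Slc6a17 and Syt3. Of the other members, Eef1g ranked nearest to Eef1a1, at place 42 with a distance of 0.264, and Eef1a2 ranked at place 1254 with 0.998. The paralogs of eEF1A were thus further from each other than Eef1a1 was from the eEF1B scaffold. A distance over 4 values from 5 libraries that all share the 0 min library is a description, and by correlation over the 5 libraries 1 of the 3 nearest genes was the same for Eef1d and 0 for the other members.

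Other genes of the elongation pathway were read in the same way, from lists named in the methods. Since 94.2% of all genes tested were called lower with the deposited factors, such a call does not set a list apart. Under TMM scaling 0 genes of the lists below were called by edgeR, while an unadjusted p under 0.05 was found for 2 of the eEF2 modifiers (lower), 3 of the other TOP mRNAs (1 lower, 2 higher) and 1 ribosomal protein mRNA (higher). Of 6 other elongation factors and eEF1 partners 3 were measured, and all 3 were called lower with the deposited factors and 0 with TMM scaling. Eef1b2, the remaining exchange subunit of eEF1B, went from 72 counts before HHT to 8 counts at 60 min. Its ratio was 0.114 (0.0475 to 0.237), with an interval that overlaps that of Eef1d and just overlaps that of Eef1g. The CDS of Eef1b2 is only 678 nt, so without its ends this ratio rests on a short stretch. Vars, the valyl-tRNA synthetase that binds the eEF1 complex, has a CDS of 3792 nt and had ratios of 0.622, 0.576, 0.212 and 0.159 in time order. Eefsec, the elongation factor for selenocysteine, had 0.270 (0.187 to 0.383) at 60 min.

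The mRNA of the kinase that inactivates eEF2 lost a larger share of its footprints than that of eEF2 itself. Eef2k had 293, 66, 31, 22 and 24 counts from the first to the last library, and its ratio at 60 min was 0.0842 (0.0531 to 0.128) against 0.270 (0.257 to 0.283) for Eef2. These intervals did not overlap; the CDS of Eef2k, 2175 nt, is shorter than that of Eef2. Its TMM-scaled slope was -0.23 (SE 0.0641, adjusted p = 0.197, edgeR) and did not pass the test. Among the enzymes that make diphthamide, the modified histidine of eEF2, Dph2 had 0.083 (0.0432 to 0.146) and Dph1 0.282 (0.190 to 0.408) at 60 min, and Dph7 and Dph6 had 0.192 and 0.183. Of the 9 genes of this list 7 were measured and 6 tested, of which 6 were called lower with the deposited factors and 0 with TMM scaling. The median ratio of the 7 at 60 min was 0.183, beside 0.181 for all genes. Of 9 listed symbols for methyltransferases of eEF1A, Mettl13 was the 1 measured in counts, with 0.116 (0.0600 to 0.207) at 60 min.

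Most termination, rescue and recycling factors, which act where elongation ends or stalls, had ratios below the all-gene median at 60 min. Of 11 listed genes 9 were measured, and 8 of the 9 were below the all-gene median at 60 min, with a median of 0.149. The all-gene median was 0.181 with quartiles of 0.134 and 0.245, so the median of the list lay within these quartiles. Etf1, the release factor eRF1, had 0.122 (0.102 to 0.145) with 1262 counts at 0 min, and its partner Gspt1, eRF3, had 0.143 (0.126 to 0.162). Abce1, which splits ribosomes after termination, had 0.10 (0.0830 to 0.121), and the rescue factors Hbs1l and Pelo had 0.125 and 0.204. All of these intervals but that of Pelo lie below those of Eef1a1, Eef1g and Eef2. All 9 were called lower with the deposited factors, and 0 with TMM scaling. The 5 mitochondrial elongation factors, which are made in the cytosol, had a median of 0.165 at 60 min: Tufm had 0.165, Tsfm 0.153, Gfm1 0.195, Gfm2 0.131 and Guf1 0.377 (0.220 to 0.623). With the deposited factors 5 of 5 were called lower, and with TMM scaling 0.

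Other TOP mRNAs did not share 1 level at 60 min. Of 13 listed symbols 10 were measured, with a median of 0.181 and 5 of 10 above the all-gene median. Naca, a subunit of the nascent polypeptide-associated complex, had the highest ratio, 0.565 (0.517 to 0.618), after 0.242, 0.374 and 0.568 at the earlier times. The CDS of Naca is only 648 nt, and the counts leave out its ends, so these ratios rest on a short stretch. The interval covers counting error only. Eif3f, an initiation factor subunit, had 0.360 and Pabpc1, the poly(A)-binding protein, 0.265, while Npm1 had 0.107 and Vim, the intermediate filament protein vimentin, 0.0659 (0.0493 to 0.0867). With the deposited factors 9 of 10 were called lower, all but Naca (adjusted p = 0.253, edgeR), and with TMM scaling 0 of 10 were called. Of 27 listed cytosolic ribosomal protein genes 18 were measured in counts, with medians of 0.216, 0.244, 0.282 and 0.210 in time order. All listed symbols were in the deposited tables, so family members missing from these tables are not among the 27. The list also holds the like-named Rpl3l, Rpl7l1 and Rpl10l. Genes with a short CDS are not in the count table, so the 18 do not stand for the whole family. Of these 18, 1 was above the all-gene median at 5 min and 12 at 60 min, from Rps3 at 0.141 to Rpl10a at 0.491 among those with at least 50 counts at 0 min. The CDS of Rpl10a is only 654 nt, and list genes were not set beside genes of like length. With the deposited factors 15 of 17 tested ribosomal protein mRNAs were called lower, beside 94.2% of all genes tested.

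**Figure D5:**
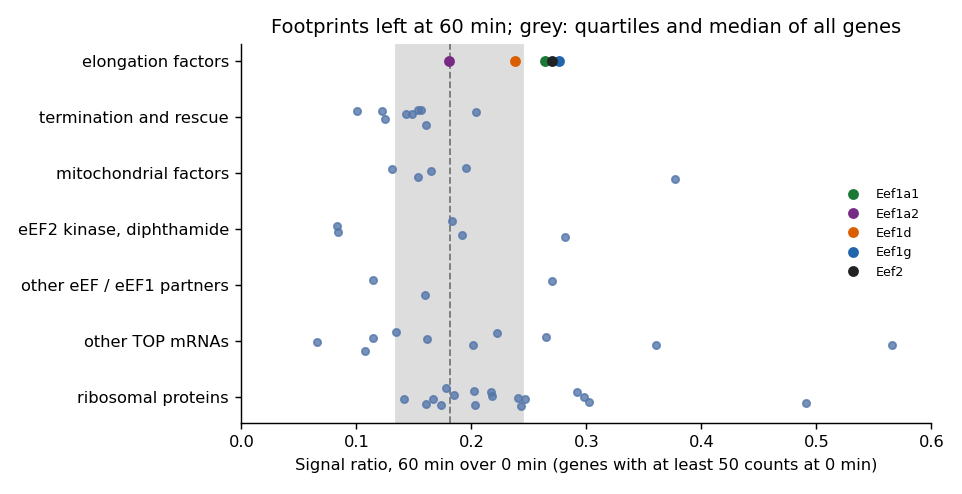
Signal ratio at 60 min over 0 min of the 5 elongation factor mRNAs (top) and of 6 lists of related genes with at least 50 counts at 0 min, each point 1 gene; the grey band and dashed line show the quartiles and the median (0.181) of 10329 genes. Eef1a1, Eef1g and Eef2 lie above the band, Eef1d inside it near its upper edge and Eef1a2 at the median.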

How the data were processed

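Footprint libraries of 5 times (1 each) were used as deposited. The submitters' processing notes name the tools SAMtools 0.0.19, TopHat2 2.0.9, Bowtie2 2.1.0, Trimmomatic 0.32 and cutadapt 1.7.1 and the build mm10, without their roles. The authors deposited expected counts per gene (whole as listed, rounded without change; the name of the table adds RSEM and a CDS without its ends), for genes with a CDS of at least 603 nt and at least 11 counts at 0 min. The deposited signal equals the count per kilobase of CDS less 600 nt, divided by a factor per library (1, 0.965, 0.828, 0.882 and 0.973 in time order). No source used here gives the origin of these factors. The deposited ratio columns equal the ratio of these signals, computed here again from the signals. A second deposited score per gene is a TPM rounded to whole numbers. The deposited score columns of rates were not used.

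Slopes were tested in R 4.3.3 with edgeR 4.0.16 (quasi-likelihood, SE taken as the slope over the root of F). DESeq2 1.42.0 and limma 3.58.1 were alternatives. With 3 residual degrees of freedom, the error term of the edgeR test mixes scatter between libraries with curvature over time. Each time has 1 pool, so p-values measure scatter about the fitted line and not spread between pools of the same time. The test was checked on simulated data with straight slopes, and 100% of 200 changed genes were recovered. Rising ones had a median slope of 0.51 under TMM, so the check does not cover curvature or slopes as small as the members' under TMM. Ratio intervals are exact conditional binomial ones, those of pair changes use the normal approximation of the log ratio, and those of signals are exact Poisson ones. Members and lists were chosen with earlier results of these data known. Named genes were the 5 members, the 3 nearest genes of each, list genes with at least 50 counts at 0 min (in longer lists the highest and lowest at 60 min) and markers with the largest counts. Lists were other elongation factors and eEF1 partners (Eef1b2, Eef1e1, Vars, Eif5a, Eif5a2, Eefsec); eEF2 modifiers (Eef2k, Eef2kmt, Dph1, Dph2, Dph3, Dph5, Dph6, Dph7, Dnajc24); eEF1A methyltransferases with older symbols (Eef1akmt1, Eef1akmt2, Eef1akmt3, Eef1akmt4, Mettl10, Mettl21b, N6amt2, Mettl13, Eef1aknmt); mitochondrial factors; termination factors (with Gspt2, Gtpbp1, Gtpbp2, Denr, Mcts1, Eif2d); other TOP mRNAs (with Eef1b2, Tpt1, Rack1, Gnb2l1, Eif3e, Eif3h, Eif4b, Hnrnpa1); ribosomal proteins; and 5 lists of cell type markers.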

Additional observations from a re-analysis of the deposited data

Results flagged for a closer look

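The TPM table holds genes that are not in the count table. Of those on the lists used here, 3 had a higher TPM in all 4 libraries with HHT than at 0 min. Such a rise is not particular to them. Eef2 (TPM 406, then 628, 494, 536 and 538) and Eef1g (112, then 121, 147, 158 and 152) had it as well. Eef1a1, Eef1a2 and Eef1d did not, and the share of all genes with such a rise was not computed. Eef1akmt1, a methyltransferase of eEF1A, had a TPM of 121 before HHT and of 161, 258, 275 and 166 in the later libraries. Rps19, a ribosomal protein, had 39, 46, 56, 62 and 66, and Mbp, myelin basic protein, had 6775, 21221, 29850, 22644 and 22887. The summed TPM of 6 mitochondrially encoded genes (mt-Co1, mt-Cytb, mt-Nd1, mt-Nd2, mt-Nd4 and mt-Nd5) went from 4152 at 0 min to 20410 at 60 min. A TPM is a share of all footprints in a library, and these values have no counts, and so no interval, here.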

How the results depend on the processing

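With 1 library per time, leaving out a library removes its time point. Genes called on the TMM-scaled slope then ranged from 0 to 955 lower and from 0 to 312 higher (1 and 0 with all libraries), and on the slope with deposited factors from 4154 to 9092 lower and from 0 to 48 higher (8900 and 0 with all), with 0 to 5 of 5 members called lower; each upper TMM count, 4154, 48 and the 0 of 5 came without the 0 min library. In place of edgeR with TMM, DESeq2 called 37 lower and 36 higher, its size factors in edgeR 3 lower, upper-quartile scaling 18 lower and 5 higher, and limma on log2(TPM + 0.1) 0 lower; 0 members were called under any of these. With deposited factors, minutes on a linear scale gave 24 lower and 0 members. Library totals only gave 57 lower, 22 higher and 0 members, and turned the slopes to 0.10 for Eef1a1, 0.0013 for Eef1a2, 0.051 for Eef1d, 0.11 for Eef1g and 0.082 for Eef2; such totals, like TMM, remove a loss common to most genes. The TMM-scaled slope of Eef1a2, 0.010, was -0.020 in limma on log2(TPM + 1) (-0.01983) and on log2(TPM + 0.1) (-0.01984), and with 1 library left out ranged from -0.0095 to 0.12; the log2 difference of all treated libraries from 0 min was -0.16. Scaling to 6 mitochondrially encoded genes, picked after their levels had been seen in earlier work, called 8828 genes and 5 of 5 members lower; its factors differ from the deposited ones by 3.94%, -0.05%, -1.21% and -0.29%.

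Ratios to 0 min are relative to other mRNAs under TMM scaling and in the TPM table, and read differently there. At 60 min they were 1.45 and 1.30 for Eef1a1, 0.989 and 0.886 for Eef1a2, 1.31 and 1.34 for Eef1d, 1.51 and 1.36 for Eef1g and 1.48 and 1.32 for Eef2. At 5 min they were 0.881 and 0.96 for Eef1a1, 0.756 and 0.824 for Eef1a2, 1.07 and 1.03 for Eef1d, 0.996 and 1.08 for Eef1g and 1.42 and 1.55 for Eef2. At 10 min they were 1.24 and 1.16 for Eef1a1, 0.839 and 0.785 for Eef1a2, 0.968 and 0.886 for Eef1d, 1.40 and 1.31 for Eef1g and 1.30 and 1.22 for Eef2. At 30 min they were 1.49 and 1.38 for Eef1a1, 0.996 and 0.927 for Eef1a2, 1.17 and 0.932 for Eef1d, 1.52 and 1.41 for Eef1g and 1.42 and 1.32 for Eef2. No paired analysis was possible because each time has 1 library. The planned search for stretches shared between members and other genes was not run, since no coding sequences were used here. A pyrimidine run beginning up to 10 nt after the annotated start was in 0 of 3 member windows, and one beginning up to 10 nt on either side in 1 of 3, that of Eef1a1 (30.7% of all windows). Shares of like-length genes below each member at 60 min kept their side of 50% when only genes with at least 500 counts at 0 min were used.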
